A study of Mus musculus with 6 samples.

Results

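The genes described here are 37 interferon-stimulated genes, measured in 3T3-L1 cells taken through adipogenic differentiation, in part with a Tsuruazuki extract ("Tsuru") added. Members were taken by symbol: a gene counted when the authors' deposited table held a row with that symbol alone, and 36 of the 37 had such a row, out of 22206 transcript clusters (the gene-level probe sets of the array). H2-D1 shares its cluster with H2-L and was left out. Each of the 36 had a single cluster. 3T3-L1 is a clonal mouse preadipocyte line, derived from embryo fibroblasts, that becomes adipocytes under a hormone mixture, so all values describe 1 line. All cells were brought past confluence, induced with IBMX, insulin and dexamethasone, moved to insulin medium at day 3 and collected at day 9, with the extract (group Tsuru, 3 arrays) or without it (group control, 3 arrays). The sample titles say only that controls were kept in medium. The protocol gives dilutions of 1/1000 and 1/100 of a 100 mg/ml stock and does not say which one the arrayed cells received. Total RNA was hybridised to Clariom S mouse arrays and values are log2 signals. The labels do not say whether the 3 samples of a group are separate cultures, so the p-values describe the spread between these arrays, which may be technical, and the number of arrays limits the precision.

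Interferons are secreted proteins that warn cells of viral infection. Type I interferons bind the receptor made of Ifnar1 and Ifnar2, whose kinases Jak1 and Tyk2 activate Stat proteins, Stat2 among them. Stat2 joins Irf9 in a transcription factor complex that binds a DNA element called the interferon-stimulated response element and switches on a shared set of antiviral genes. Type II interferon, Ifng, has a receptor of its own and is known above all for antigen presentation and GTPase genes. Fibroblasts and adipocytes carry the receptors, and the response genes often rise and fall together in cultured cells.

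Across the 6 arrays these genes varied far more between arrays than between the groups, and a single array, control replicate 1, carried most of that variation. Control replicate 1 gave the highest of the 6 readings for 33 of the 36 members, against 21.1% of all clusters. For 23 members it lay at least 1 log2 unit (2-fold) above every other array, which was so for 0.784% of all clusters, and for 13 it lay at least 2 units above, against 0.0991%. The median member deviated from its own mean over the arrays by 1.52 on control replicate 1, -0.76 on control replicate 2 and -0.06 on control replicate 3. On the Tsuru arrays the median deviations were -0.78, -0.20 and 0.06 for replicates 1, 2 and 3, so that 2 Tsuru arrays and 1 control array read close to the middle while control replicate 2 read as low as Tsuru replicate 1. The medians over all clusters lay between -0.02 and 0.01 on each array. RNA came from whole cultures, so the number of cells with these transcripts and the RNA per cell cannot be told apart. What set control replicate 1 apart was not tested. Among the members the range over the arrays had a median of 2.34 log2 units, against 0.68 for all clusters, and it was at least 2 units for 25 members, against 1.08% of clusters.

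**Figure D1:**
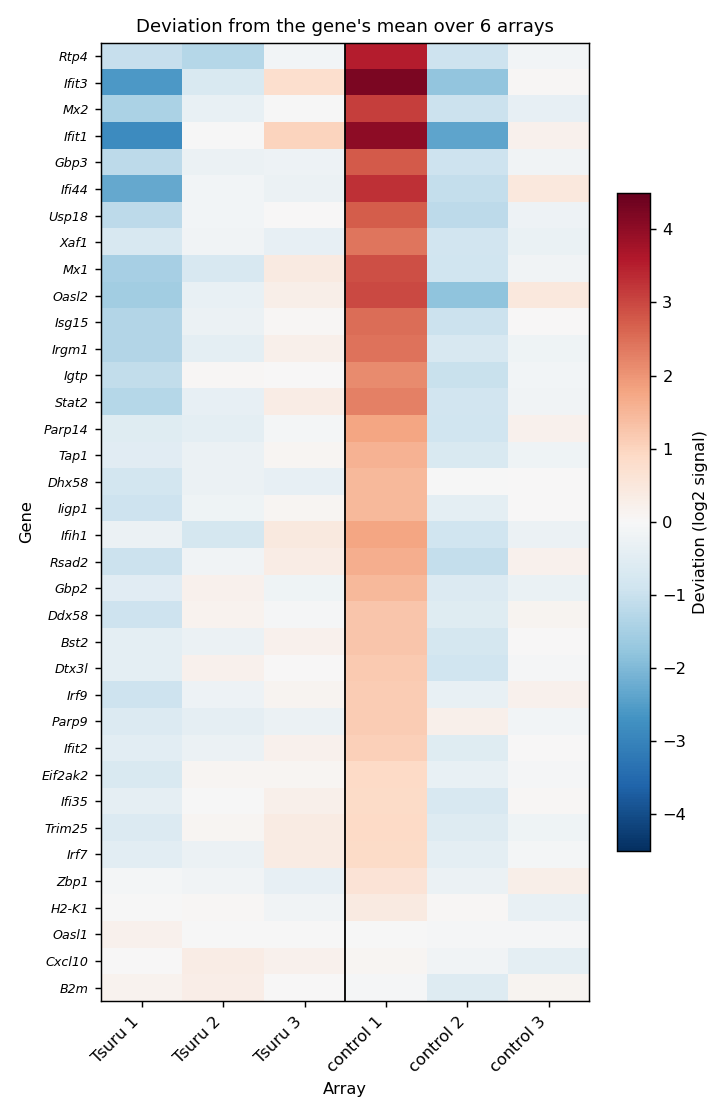
Deviation of each of 36 interferon-stimulated genes from its mean over 6 arrays (colour, log2 signal), with genes in rows, ordered by how far control replicate 1 lay above the next array, and arrays in columns. Control 1 is the highest array for 33 genes, and Tsuru 1 and control 2 are the lowest arrays for 19 and 12.

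Control replicate 1 differed from the other arrays in other measures as well. Its mean correlation with the others over all clusters was 0.9868, against 0.9906 to 0.9918, and its positive control sets separated from its negative ones with an area under the curve of 0.806, against 0.825 to 0.840. The spike-in transcript dap, added before labelling, read 8.33 on it, 8.32 on control replicate 2 and 6.84 to 7.31 elsewhere. The spike-in phe read 5.25 and 5.17 on these 2 arrays and 4.45 to 4.84 elsewhere, and lys read 3.53 to 3.87 throughout. The members were among the lowest on control replicate 2. Whether the spike-in readings bear on the members' values was not tested. In all, 174 of the 22206 clusters lay at least 1 log2 unit above every other array on control replicate 1. Each of the other arrays had such a lead for 1 to 16 clusters. Among the clusters that led on control replicate 1, 151 had a single symbol. Of these, 23 were members and 14 stood in a list of other interferon-stimulated genes, so most were in neither. With limma's array quality weights the members' median log2 fold change between groups was -0.42, against -0.68 without weights. These weights were lowest for control replicates 1 and 3, at 0.603 and 0.647, against 0.969 to 1.6 elsewhere. The labels give no batch or scan date.

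The remaining 5 arrays also differed among themselves. Without control replicate 1, Tsuru replicate 1 and control replicate 2 were the 2 lowest arrays for 27 of 36 members, a placing shared by 9.72% of all clusters. Tsuru replicate 1 read lower than Tsuru replicate 3 for 32 members, and control replicate 2 lower than control replicate 3 for 32. Tsuru replicate 3 was the highest of the 5 for 19 members, against 19.4% of clusters. Low and high arrays were thus found in both groups. The median member had a standard deviation of 0.52 over the Tsuru arrays and 1.16 over the control arrays, against 0.19 and 0.24 for all clusters.

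No member differed between Tsuru and control cells after adjustment. By limma, adjusting over all 22206 clusters by the Benjamini-Hochberg method, 0 of 36 members, and 0% of all clusters, reached an adjusted p under 0.05. The study's methods call a gene at an unadjusted p under 0.05 with a linear fold above 1.1, and 2 of 36 members passed that, Dhx58 and Parp9, both lower with Tsuru, while 0 passed without the empirical Bayes step (8.66% of clusters). This is 5.56% of the members, against 11.1% of all clusters called in either direction and 5.38% called lower. The groups did not overlap for the same 2 members, against 16.8% of all clusters. The log2 fold change, Tsuru minus control, was negative for 33 of 36 members, against 49.4% of clusters, with a median of -0.68, against 0.00. It was under -0.5 for 21 members, against 5.39% of clusters. That lean depended most on control replicate 1. This array was singled out after its high readings were seen, so leaving it out had to raise the differences of members highest on it. Without control replicate 1 the median over members was 0.09, 12 of 36 were negative (49.4% of clusters), and 2 members passed the methods' threshold (8.96% of clusters), Parp9 lower and Cxcl10 higher. The groups then did not overlap for 4 members, Dhx58, Parp9, Cxcl10 and Oasl1, against 25.7% of clusters. Without control replicate 2, in contrast, 18 members passed the methods' threshold, all lower (9.80% of clusters in either direction), with a median of -1.05. Without Tsuru replicate 1, 0 passed (7.47% of clusters) and the median was -0.38. The lowest adjusted p over members was 0.463 without control replicate 2.

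**Figure D2:**
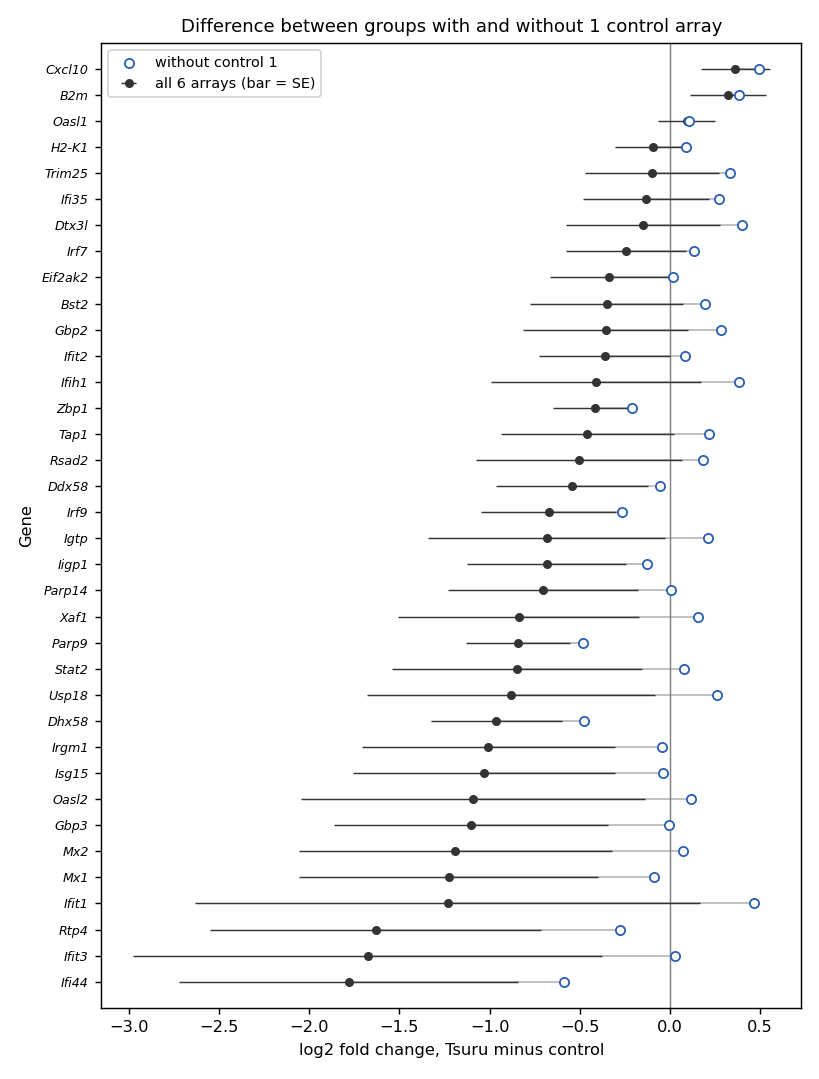
Log2 fold change (Tsuru minus control, x axis) of the 36 genes (y axis) over all 6 arrays (filled points, bars are moderated standard errors) and without control replicate 1 (open points, joined by grey lines). The median moves from -0.68 to 0.09, and Ifi44, Parp9 and Dhx58 have the most negative values among the open points.

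The promoters of 28 of the 37 genes were found in the RefSeq promoter table (build GRCm38.p6, from 250 bases before to 50 bases after the annotated start). The response element was searched as GAAA, any 2 bases, then GAAA, on both strands, overlapping matches included. It occurred for 15 of the 28 genes, 53.6%, against 3.99% of 27025 genes with a promoter in the table. Among genes with the response element, control replicate 1 lay at least 1 log2 unit above every other array for 12 of 15, with a median lead over the next array of 1.36. Among the 12 measured genes without it, 4 had such a lead, and the median was 0.92, so that genes of both kinds took part. A match is only a run of letters, and its absence from these windows says nothing of elements elsewhere. The sequences below show 3 genes with large leads and 2, B2m and Cxcl10, that hold the same letters and had no lead. The dimness of Cxcl10 on every array limits what its lack of a lead can show. Capitals mark the matches to the response element, and each sequence is printed 5′ to 3′ on the gene's strand.
Ifit3 promoter (chr19:34583279-34583578, plus strand): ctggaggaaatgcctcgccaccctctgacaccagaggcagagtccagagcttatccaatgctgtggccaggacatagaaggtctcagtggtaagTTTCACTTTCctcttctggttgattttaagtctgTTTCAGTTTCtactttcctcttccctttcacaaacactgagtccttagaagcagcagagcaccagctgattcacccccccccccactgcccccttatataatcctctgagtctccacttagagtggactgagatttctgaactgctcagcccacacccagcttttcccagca
Isg15 promoter (chr4:156200769-156201068, minus strand): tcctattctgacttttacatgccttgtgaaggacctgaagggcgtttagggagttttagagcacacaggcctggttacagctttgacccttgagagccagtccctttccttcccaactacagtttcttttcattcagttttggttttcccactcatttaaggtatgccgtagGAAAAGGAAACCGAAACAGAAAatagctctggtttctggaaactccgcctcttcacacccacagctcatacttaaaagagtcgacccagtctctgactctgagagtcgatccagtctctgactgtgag
Irgm1 promoter (chr11:48871371-48871670, minus strand): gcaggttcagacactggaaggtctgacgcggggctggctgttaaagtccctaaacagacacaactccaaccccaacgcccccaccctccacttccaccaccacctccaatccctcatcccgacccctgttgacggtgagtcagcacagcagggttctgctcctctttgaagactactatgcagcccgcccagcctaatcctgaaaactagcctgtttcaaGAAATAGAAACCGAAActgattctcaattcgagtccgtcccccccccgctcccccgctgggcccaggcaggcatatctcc
B2m promoter (chr2:122147437-122147736, plus strand): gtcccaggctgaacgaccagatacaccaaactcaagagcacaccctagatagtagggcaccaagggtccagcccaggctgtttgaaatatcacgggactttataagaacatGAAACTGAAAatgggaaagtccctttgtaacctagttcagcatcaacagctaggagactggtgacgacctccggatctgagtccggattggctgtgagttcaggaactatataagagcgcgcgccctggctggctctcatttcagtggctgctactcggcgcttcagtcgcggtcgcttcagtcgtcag
Cxcl10 promoter (chr5:92348840-92349139, minus strand): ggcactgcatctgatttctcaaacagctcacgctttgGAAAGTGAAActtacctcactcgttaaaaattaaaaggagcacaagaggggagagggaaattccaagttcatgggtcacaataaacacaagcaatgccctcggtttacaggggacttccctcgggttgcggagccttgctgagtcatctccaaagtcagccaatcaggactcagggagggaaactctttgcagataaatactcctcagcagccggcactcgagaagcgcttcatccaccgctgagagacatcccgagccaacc
In Ifit3 the 2 matches begin 156 and 122 bases before the start. In Isg15, 3 overlapping matches begin 78, 72 and 66 bases before it, and in Irgm1 2 overlapping matches begin 30 and 24 bases before it. B2m has 1 match 139 bases before its start, and Cxcl10 has 1 at 213 bases.

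The transcription factor genes of the pathway followed the array pattern. Stat2, a subunit of the response complex, read 8.72, 9.64 and 10.34 with Tsuru and 12.27, 9.13 and 9.85 without, in order of replicate. Control replicate 1 was 1.93 log2 units above the next array, and the other 2 controls lay within the Tsuru values. The difference between groups was -0.85 ± 0.69 (SE; limma adjusted p = 0.67) and 0.08 without control replicate 1. Irf9, the DNA-binding subunit of the same complex, read 5.66, 6.37 and 6.71 with Tsuru and 7.73, 6.24 and 6.79 without, a difference of -0.67 ± 0.37 (SE). Irf7, which amplifies interferon production, was dim, between 3.30 and 4.65, and under the mean of the array's own background sets on 5 arrays, with control replicate 1 again highest.

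Genes of nucleic acid sensing had a median lead of 0.94 on control replicate 1. Dhx58 encodes LGP2, a helicase that modulates the RNA sensors RIG-I and MDA5. It read 5.59, 6.16 and 6.06 with Tsuru and 7.87, 6.40 and 6.42 without. All controls lay above all Tsuru arrays. The reading on Tsuru replicate 1 was under the mean of that array's negative control sets, so the size of the difference is not exact. The group means were 5.93 ± 0.30 (SD, n = 3) and 6.90 ± 0.84 (SD, n = 3), a difference of -0.96 ± 0.36 (SE; limma adjusted p = 0.401). Without control replicate 1 the difference was -0.48 ± 0.21 (SE; limma adjusted p = 0.564) and did not pass the methods' threshold. Ddx58, the RIG-I gene, read 9.51, 10.58 and 10.38 against 11.68, 9.89 and 10.54. Ifih1, the MDA5 gene, had its highest value, 9.36, on control replicate 1 and its lowest, 6.67, on control replicate 2, so the controls spanned all 3 Tsuru values. Eif2ak2, the RNA-dependent kinase PKR, and Trim25, a ubiquitin ligase that acts on RIG-I, were brighter and spread less, by 1.58 and 1.53 log2 units over the arrays. Zbp1, a sensor of Z-form nucleic acids, spread by 0.99 and differed by -0.42 ± 0.23 (SE). It lay under the mean of the negative control sets on 4 arrays, so neither size is exact.

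The ubiquitin-like modifier Isg15 and its protease Usp18 had wide leads on control replicate 1. Isg15 read 4.13, 5.18 and 5.49 with Tsuru and 7.96, 4.48 and 5.47 without, so that it lay under the mean of the negative control sets on 5 arrays and clearly above it on control replicate 1. Its difference of -1.03 ± 0.73 (SE; limma adjusted p = 0.616) was -0.04 without that array. Usp18, which removes Isg15 from proteins and restrains the receptor, read 5.48, 6.52 and 6.66 against 9.38, 5.49 and 6.43. Its readings on Tsuru replicate 1 and control replicate 2 lay under the mean of the negative sets, so no fold against them is exact.

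The antiviral effectors spanned the widest ranges. Ifit3, a member of a family of tetratricopeptide proteins that bind viral RNA or partner with those that do, read 8.28, 10.18 and 11.63 with Tsuru and 15.11, 9.09 and 10.92 without. Control replicate 1 was 64.8-fold over control replicate 2, and the Tsuru arrays differed by 3.35 log2 units among themselves. The group difference was -1.67 ± 1.30 (SE; limma adjusted p = 0.65), and 0.03 ± 0.84 without control replicate 1. Ifit1 read 4.12, 6.93 and 7.97 against 10.97, 4.59 and 7.16, and its lowest values lie near the array background, so folds taken against them are not exact. Ifit2 had the narrowest range of the family, 1.63 log2 units against 6.85 for Ifit1.

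Ifi44, an interferon-induced gene of antiviral function, had the most negative difference of all members, -1.78 ± 0.94 (SE; limma adjusted p = 0.506). Rtp4, known for chaperoning receptors and for a part in antiviral control, had the widest lead of control replicate 1 over the next array, 3.65 log2 units. It read 5.88, 5.63 and 6.79 with Tsuru and 10.44, 5.97 and 6.79 without. The dynamin-like GTPase genes Mx1 and Mx2 read 10.25 and 11.43 on control replicate 1, and no more than 7.75 and 8.28 on any other array. Oasl2, of the oligoadenylate synthetase-like family, read 11.54, 6.77 and 9.06 on the controls and 7.01 to 8.85 with Tsuru, while Oasl1 stayed under the background sets on all 6 arrays. Xaf1, which binds the apoptosis inhibitor XIAP, read 6.76, 7.34 and 7.11 against 9.90, 6.63 and 7.19. For these genes the controls other than replicate 1 lay within or close to the Tsuru values. Rsad2, the gene of viperin, Bst2, the gene of tetherin, and Ifi35 had smaller ranges, of 2.69, 2.04 and 1.59 log2 units. Rsad2 lay under the mean of the negative sets on 5 arrays, so its range is not exact.

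**Figure D3:**
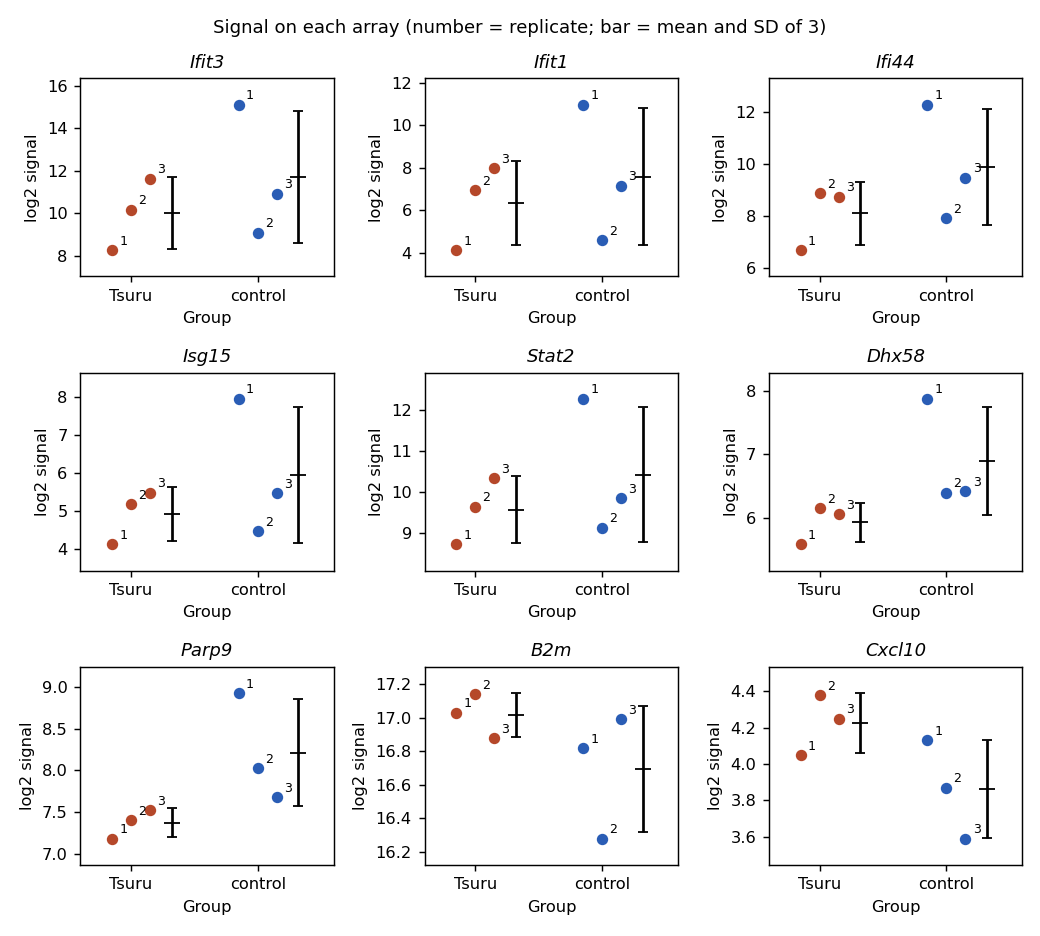
Log2 signal (y axis) of 9 members on each of 3 Tsuru and 3 control arrays (points, numbered by replicate), with the mean and SD of each group as a bar at its right. Control 1 stands above all other arrays in the first 7 panels and within the other values for B2m and Cxcl10, and groups do not overlap for Dhx58 and Parp9. Each panel has its own scale.

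Parp9 was the member with the smallest p. It encodes an inactive ADP-ribosyltransferase that pairs with the ubiquitin ligase encoded by Dtx3l. It read 7.18, 7.40 and 7.52 with Tsuru and 8.93, 8.03 and 7.68 without. Every control lay above every Tsuru array, and control replicate 2, low for most members, was the second highest here. The difference was -0.84 ± 0.29 (SE; limma adjusted p = 0.374), and -0.48 ± 0.20 without control replicate 1 (limma adjusted p = 0.538). Without Tsuru replicate 1 it was -0.75 ± 0.34 and no longer past the methods' threshold (limma adjusted p = 0.674). Dtx3l, the partner gene, read 7.11, 7.75 and 7.55 against 8.72, 6.65 and 7.50 and differed by -0.15 ± 0.43 (SE), so the pair did not share the separation of groups. Parp14, a related ADP-ribosyltransferase gene, read 7.10, 7.21 and 7.55 against 9.41, 6.73 and 7.84.

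The interferon-inducible GTPases, which act at the membranes around intracellular pathogens, all had a lead of at least 1 log2 unit on control replicate 1. Gbp3, a guanylate-binding protein gene, read 6.82, 7.72 and 7.78 with Tsuru and 10.75, 7.05 and 7.84 without, and Irgm1, a regulatory member of the immunity-related family, 6.14, 7.02 and 7.67 against 9.88, 6.71 and 7.26. Without control replicate 1 their differences were 0.00 ± 0.33 and -0.04 ± 0.39 (SE). Iigp1 and Gbp2 had leads of 1.37 and 1.28 log2 units. Igtp had a measured lead of 2.09, but on the other 5 arrays it lay under the mean of the negative sets, so that size is not exact. The 5 genes had a median difference of -0.68 over all arrays and 0.00 without control replicate 1.

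Of the antigen presentation genes B2m departed from this pattern, as did the chemokine gene Cxcl10. B2m, the light chain of class I molecules, was the brightest member and read 17.03, 17.14 and 16.88 with Tsuru and 16.82, 16.28 and 16.99 without. Control replicate 1 lay below 4 of the other 5 arrays. H2-K1, a class I heavy chain gene with close relatives on the same chromosome that its probes may not tell apart, spread by 0.75 log2 units, with control replicate 1 highest. Tap1, which carries peptides to class I molecules, followed the other members, at 10.66 on control replicate 1 and 8.39 to 9.17 elsewhere. Cxcl10, a chemokine gene that draws T cells, stayed under the mean of the background sets on every array, at 4.05, 4.38 and 4.25 with Tsuru and 4.13, 3.87 and 3.59 without, so its difference of 0.36 ± 0.19 (SE; limma adjusted p = 0.507) is not exact.

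The interferon genes themselves did not share the lead of control replicate 1. Of 16 interferon genes measured, 10 had a mean under that of the background sets. Ifnb1 read between 4.15 and 4.59 on all arrays, next to a background mean of 4.57, and 0 of 16 had a lead of at least 1 unit on control replicate 1. Ifna13 passed the methods' threshold, 1 of 16 measured genes, with a difference of -0.63 ± 0.18 (SE; limma adjusted p = 0.352), and all its values lay under the background sets. Of 11 receptor and JAK-STAT genes 2 passed, both higher with Tsuru: the type II receptor gene Ifngr1 by 0.50 ± 0.20 (SE; limma adjusted p = 0.411) and Stat3 by 0.47 ± 0.18 (adjusted p = 0.41). Ifnar1 and Ifnar2 differed by 0.03 each, with readings between 11.11 and 11.85.

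Genes that detect infection and induce interferon gave 1 call of 16 in each direction at the methods' threshold. These were Mb21d1, the DNA sensor cGAS, at 0.55 ± 0.21 (SE; limma adjusted p = 0.411), and Tlr7, a receptor for RNA, at -0.85 ± 0.36 (adjusted p = 0.424). Tlr7 lay above the background sets on 1 array, control replicate 3, at 5.41, so its difference is not exact. Tlr3 read 10.89 on control replicate 1 and 9.38 to 10.29 on the others, and Traf3 differed by 0.40 ± 0.23. Among 9 genes that restrain the response 1 passed, Pias4, an inhibitor of Stat proteins, at 0.64 ± 0.22 (limma adjusted p = 0.374). Among 16 NF-kB and inflammatory targets 1 passed, the chemokine gene Cxcl1, at 0.48 ± 0.18 (limma adjusted p = 0.408). Cxcl1 lay under the mean of the negative sets on every array, and Pias4 did so on every control array. Mb21d1 lay under that mean on control replicates 2 and 3, so the sizes for these genes are not exact. No gene of these 3 lists had a lead of 1 unit on control replicate 1. On that array the median NF-kB target lay 0.21 below its mean over the other arrays, where the median interferon-stimulated member lay 1.82 above.

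Other interferon-stimulated genes, 65 measured of 74 listed, showed the same pattern in part. On control replicate 1, 44 had their highest value and 14 had a lead of at least 1 log2 unit, or 21.5%. Their median difference between groups was -0.21, and 0.00 without control replicate 1, and 1 passed the methods' threshold, Oas1g at -0.58 ± 0.23 (SE; limma adjusted p = 0.411). Oas1g lay above the background sets on control replicate 1 alone, at 4.81, so this difference is not exact. The 12 named genes outside the members with the widest leads on control replicate 1, predicted genes passed over, included Ifit3b, Gbp7, Csprs, Ifi203, Tgtp2, Rnf213, Gvin1, Ddx60, Samd9l, Irgm2 and Parp12. The 12 were chosen for that lead, so it is a description, and 7 of them stood in the list of other interferon-stimulated genes. Ifit3b, a near copy of Ifit3 whose probes may share its signal, read 14.92 on control replicate 1 and 8.03 to 11.74 on the others. Ifi203, a nuclear protein gene of the interferon-inducible p200 family, read 14.18, which was 2.18 above the next array, and Rnf213, a large ubiquitin ligase gene, 13.05 against 9.31 to 11.03.

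**Figure D4:**
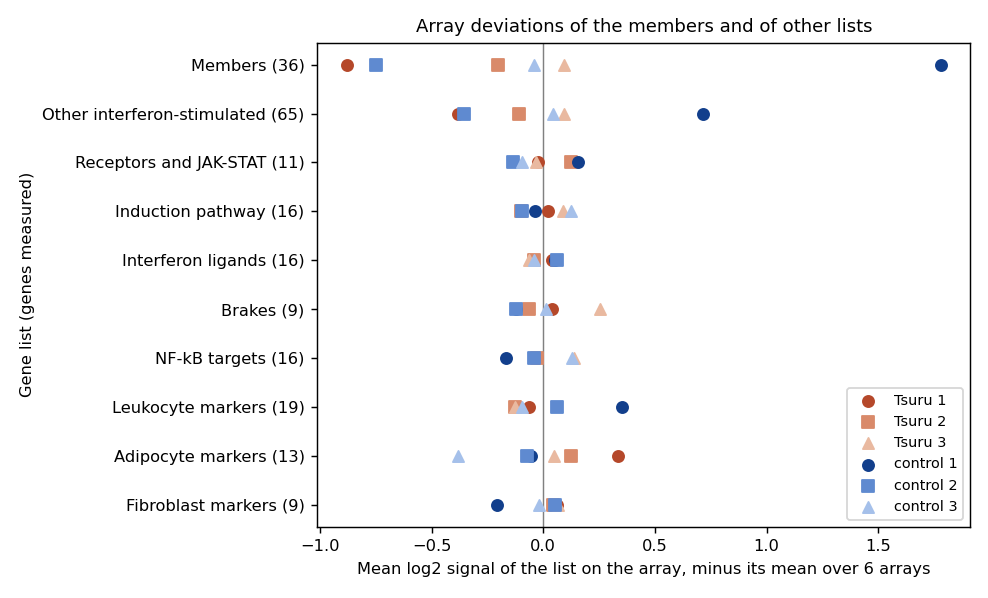
Mean log2 signal of each gene list (y axis, with the number of genes measured) on each array, minus its mean over the 6 arrays (x axis). Control 1 stands far to the right for the members and for the other interferon-stimulated genes, and within 0.4 log2 units of the mean for the remaining lists.

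Markers of the labelled cells were mostly bright, and those of leukocytes were mostly dim. Of 13 adipocyte markers 1 had a mean under that of the background sets, and of 9 fibroblast markers 0 did. Adipoq read 15.80 to 16.83 and Col1a1 16.56 to 17.19, so both an adipocyte and a fibroblast gene were bright on every array. Of 19 leukocyte markers 8 had a mean under that of the background sets, and 3 passed the methods' threshold, all lower with Tsuru: Lyz1, Lyz2 and the macrophage receptor gene Mrc1. Lyz1 read 6.14, 5.92 and 6.11 with Tsuru and 8.39, 7.69 and 6.24 without, and Mrc1 read 6.70 on control replicate 1. Mrc1 lay under the mean of the negative sets on every Tsuru array and on control replicate 2. Lyz2 did so on Tsuru replicates 2 and 3, so the differences of these genes are not exact. The log2 of the summed leukocyte signal ran from 9.22 to 9.35 on the Tsuru arrays. It stood at 10.19, 9.66 and 9.38 on the controls, highest on control replicate 1. Lyz1 and Lyz2 were the brightest of these markers there, at 8.39 and 7.88, and weighed most in that sum. On that array the median leukocyte marker lay 0.19 above its mean over the other arrays, and 8 of 19 had their highest value. The leukocyte genes Ptprc and Csf1r read 5.81 and 3.78 on that array, against 5.73 to 6.18 and 3.11 to 4.24 on the others. Tyrobp lay between 2.79 and 3.78 throughout. Csf1r and Tyrobp were under the mean of the background sets on every array, and Ptprc was near the mean of the negative sets. Their level readings therefore cannot show whether leukocyte RNA differed between arrays. The part of such markers in the members' values was not tested. Adipocyte markers had 3 of 13 past the threshold, all higher with Tsuru, namely Plin1, Plin4 and Cfd, and fibroblast markers 1 of 9, Zfp423. Over these lists of pathway genes and markers together, 15 of 174 genes passed the methods' threshold, or 8.62%, against 11.1% of all clusters. Without control replicate 1, 7 of the 15 still passed, namely Ifna13, Mb21d1, Lyz1, Plin1, Plin4, Cfd and Zfp423. The calls of Ifngr1, Stat3, Pias4, Tlr7, Cxcl1, Oas1g, Lyz2 and Mrc1 were lost without that array, an alternative chosen after seeing the data.

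The averages in the authors' deposited table gave smaller differences for these genes. There 28 of 36 members had a negative fold, 3 had a p under 0.05 against 11.9% of all clusters, and the median log2 difference of the authors' averages was -0.26. In the authors' deposited table Dhx58 had a signed fold of -1.42 (p = 0.0201), Parp9 -1.79 (p = 0.0329) and Cxcl10 1.46 (p = 0.0165), each with an FDR value of 0.3453 or more. These 3 members also stood in the authors' deposited table of filtered genes. For 27 members the authors' control average lay below the mean of the 3 deposited control arrays. For Gbp3 the authors' deposited table gave a control average of 7.92, where the arrays read 10.75, 7.05 and 7.84.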

How the data were processed

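Signals in the deposited series table are log2 values. The authors obtained them by SST-RMA in TAC version 4, per the submitters' processing notes and the series design text. Of its 28846 probe sets, 6640 control sets were left out. For the p-values and signed folds of the authors' deposited table, the series design text names ANOVA and an empirical Bayes step. Its control average matched the mean of the 3 arrays to 0.01 in 4.83% of clusters. The reason was not tested. No genome build for the clusters is named in the sources used. The fit used limma 3.58.1 (R 4.3.3; lmFit and eBayes, 5.86 prior degrees of freedom) on all 22206 clusters without a filter, Tsuru minus control, with Benjamini-Hochberg adjustment. Errors are moderated standard errors or standard deviations. The fit was tested on simulated data. Of each other list the 4 genes with the smallest p could be named, besides Ifnb1, Ifnar1, Ifnar2 and defining cell markers (Adipoq, Col1a1, Ptprc, Csf1r, Tyrobp; these 5 were chosen after their values were seen), and of all other named genes the 12 with the widest lead on control replicate 1. A further gene that this rule names is not reported here. The members, lists and tests were chosen with earlier results of these data known. Alternatives changed the normalization, dim-signal filter, variance model, block, cluster choice and arrays. Any 2 arrays had the same value for at most 10 probe sets.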

Additional observations from a re-analysis of the deposited data

How the results depend on the processing

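The members' median log2 fold change stayed negative under every alternative in normalization, filter, variance model, block and cluster choice, and it turned positive in 1 setting, without control replicate 1. With array quality weights, lowest for control replicates 1 and 3 at 0.603 and 0.647, the median was -0.42 and 31 members were negative. When 1 array at a time was left out, the median ran from -1.05 to 0.09, the number of negative members from 12 to 33, members past the methods' threshold from 0 to 18, members with groups that do not overlap from 2 to 8 (24.9% to 34.0% of all clusters), all clusters past the methods' threshold from 1659 to 3616, and clusters at an adjusted p under 0.05 from 0 to 25. The highest of these last counts came without control replicate 3, where 4 members had groups that do not overlap and the lowest adjusted p over members was 0.114. Members with groups that do not overlap numbered 4 after cyclic loess (15.8% of clusters) and 4 with array medians subtracted (18.5%). The plain t-test, without the empirical Bayes step, passed 0 members at the methods' threshold (8.66% of clusters). Keeping clusters with a mean log2 signal of 6 or more left 29 members and 1309 clusters past the threshold, since fewer clusters were tested. Except where named, the cause was not tested. Cxcl10 passed the threshold, higher with Tsuru, after quantile, cyclic loess or median normalization and without control replicate 1. With the replicate number as a block, 3 members passed, Dhx58, Parp9 and Rtp4, and 2775 clusters, while the median stayed at -0.68. Same-numbered arrays deviated together with correlations of 0.00198, 0.00593 and 0.186, so the numbers were not taken as pairs, and not every array correlated best with its own number. Oasl1 and Cxcl10 lay under the background sets on all arrays, which limits what their values can show.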
